A study of Mus musculus with 8 samples.

Results

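A set of 10 genes of the NF-kB system was followed in mouse acute myeloid leukemia cells labelled as Cop1 knockout or wild type. They were chosen as a fixed list of symbols: the subunit genes Nfkb1, Nfkb2, Rela, Relb and Rel, the inhibitor genes Nfkbia, Nfkbie and Nfkbiz, the feedback gene Tnfaip3, and Bcl3. All 10 had rows, which makes 10 of the 13378 genes and 120 of the 134051 splice junctions measured, and all 10 passed the filter on low values. No measured value entered the choice by rule, although earlier results of these data were known when the list was made.

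The cells labelled Cop1KO (genotype Cop1 ko/ko, 4 libraries) had received 4-hydroxytamoxifen, and the cells they were set against, labelled Cop1WT (genotype Cop1 +/+, 4 libraries), had received no treatment, so that the drug and the genotype cannot be told apart. Both groups are the FT1CL line, which descends from marrow of mice 8 weeks of age, Cop1 cKO/Rosa26-Cre-ERT2, given 5-fluorouracil. The marrow was infected with a pMYs retrovirus that carries Trib1, so every library has that transgene, and all cells grew with interleukin-3 at 5 ng/mL and 10% serum. Cre-ERT2 is a recombinase that is inactive until it binds 4-hydroxytamoxifen, and Rosa26 is a locus active in most cell types. Nothing in the labels says that the line is 1 clone, or that replicate libraries were grown apart. The p-values therefore speak of the spread among these 8 libraries alone, and that spread may be technical.

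NF-kB is a family of transcription factors that work as pairs of subunits and are held in the cytoplasm by inhibitors of the IkB family. Signals from receptors such as those for tumour necrosis factor, interleukin-1 and bacterial products activate a kinase complex that marks the inhibitors for destruction, after which the subunits enter the nucleus. Several of the genes they switch on encode IkB proteins and other brakes, and in myeloid cells they also switch on chemokines, cytokines and survival genes.

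The stretches of DNA just before the gene starts show how NF-kB sites lie at some of these genes. Starts for 7 of the 10 genes were found in RefSeq (build GRCm38.p6), and 5 of these 7 hold a 10-base match to the kappa B consensus, the sequence that NF-kB subunits bind, within 250 bases before a start on either strand. These are Nfkbia, Nfkbie, Nfkb2, Rel and Tnfaip3, and no match lay in these windows of Rela and Bcl3. Among all 27025 genes with such windows, 4.46% hold a match. The 3 windows below were picked with the results known. Nfkbia and Nfkb2 were both higher in Cop1KO, and Rela is the subunit gene with a window and no match. Of the 3 Nfkb2 starts the most upstream is shown. Capitals mark the bases of consensus matches, with overlapping matches joined, and each window ends at the base before the start.
Nfkbia, chr12:55492648-55492897, minus strand: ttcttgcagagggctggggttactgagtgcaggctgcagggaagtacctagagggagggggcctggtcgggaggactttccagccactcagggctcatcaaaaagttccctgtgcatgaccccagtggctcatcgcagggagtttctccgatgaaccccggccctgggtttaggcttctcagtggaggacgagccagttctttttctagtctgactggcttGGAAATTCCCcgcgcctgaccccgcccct
Nfkb2, chr19:46304487-46304736, plus strand: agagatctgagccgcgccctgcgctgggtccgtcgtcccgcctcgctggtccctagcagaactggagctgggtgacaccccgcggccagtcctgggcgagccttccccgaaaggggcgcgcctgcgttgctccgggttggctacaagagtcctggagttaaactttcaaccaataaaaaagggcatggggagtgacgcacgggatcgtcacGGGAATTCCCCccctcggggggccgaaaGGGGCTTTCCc
Rela, chr19:5637291-5637540, plus strand: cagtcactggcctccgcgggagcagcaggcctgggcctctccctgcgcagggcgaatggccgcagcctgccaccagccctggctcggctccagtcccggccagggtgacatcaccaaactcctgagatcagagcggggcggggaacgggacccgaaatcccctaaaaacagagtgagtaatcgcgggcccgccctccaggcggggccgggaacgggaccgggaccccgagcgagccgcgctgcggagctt
The match of Nfkbia lies 29 bases before the start, and those of Nfkb2 lie 39, 38 and 11 bases before it. A match is a description of the letters and not a measured binding site. Nfkbie (log2 fold change -0.44), Rel (-0.06) and Tnfaip3 (0.82) also hold matches and were not called. No window was found for Nfkbiz, which was higher, or for Nfkb1 and Relb. Whether matches go with changes was not tested.

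The deposited values are a signal per splice junction, from which junction reads were recovered, summed for each gene and scaled to reads per 1000000 junction reads (RPM). Libraries held 17333302 to 22469109 junction reads. Cop1 itself had 66.7 to 81.3 RPM in Cop1KO and 159 to 166 RPM in Cop1WT (log2 fold change -1.13, SE 0.08, limma adjusted p = 4.91e-04). Cop1KO library 4 stood apart from the other Cop1KO libraries, correlating with them at 0.958 to 0.963, against 0.981 to 0.984 among libraries 1 to 3. Cop1WT library 4 stood apart as well, at 0.967 to 0.971 with the other Cop1WT libraries, against 0.980 to 0.988 among Cop1WT libraries 1 to 3. Summed RNA of 13 late neutrophil markers (Ltf, Ngp, Lcn2, Mmp8 and others, 8 of 13 higher) was 4963, 10390, 4433 and 365 RPM in Cop1KO libraries 1 to 4, against 12.3 to 52.8 RPM in Cop1WT, with Retnlg at 0 reads in all 4 Cop1WT libraries. In the list of 9 mast cell and basophil markers 5 were higher and the sums were 12338 to 17536 RPM in Cop1KO and 12167 to 14129 RPM in Cop1WT. Most of these sums was Cpa3, which was not called (means of 11699 RPM in Cop1KO and 12276 RPM in Cop1WT). The 5 higher were Prss34 (log2 fold change 4.79), Mcpt8 (2.89), Tpsb2 (2.11), Cma1 (1.63) and Ms4a2 (0.96). Of 8 tested monocyte and macrophage markers 1 was higher (4 higher and 1 lower with the replicate number as a block), with sums of 632 to 1575 RPM in Cop1KO and 501 to 928 RPM in Cop1WT and C1qa under 10 reads. Of 11 genes of myeloid leukemia identity 3 were higher and 1 was lower, and the sums were 3287 to 5790 RPM in Cop1KO and 1921 to 4111 RPM in Cop1WT. The pan-leukocyte gene Ptprc had 758 ± 161 RPM in Cop1KO and 473 ± 63.6 RPM in Cop1WT (SD, n = 4 each, here and below). The myeloid factor Spi1 had 213 ± 48.7 RPM in Cop1KO and 123 ± 26.4 RPM in Cop1WT. Ctsg, also higher, had 1882 ± 377 RPM in Cop1KO and 523 ± 409 RPM in Cop1WT. The progenitor marker Cd34 was the 1 lower, with 70.6 ± 34.5 RPM in Cop1KO and 199.7 ± 79.5 RPM in Cop1WT. Kit, Myb, Itgam, Mpo, Elane, Prtn3 and Fcgr3 were not called. Lymphocyte markers (0 of 3 tested called, and 1 lower, Nkg7, with the block) summed to 25.1 to 81.9 RPM in Cop1KO and 63.7 to 123 RPM in Cop1WT. Of 6 tested erythroid and megakaryocyte markers 0 were higher and 1, Hba-a1, was lower (log2 fold change -2.61, limma adjusted p = 0.00127). Their sums were 362 to 821 RPM in Cop1KO and 505 to 795 RPM in Cop1WT. Beside these counts, 8.49% of all genes tested were called higher and 12.1% lower (limma, adjusted p under 0.05). With the replicate number as a block the shares were 12.3% and 15.7%. A single call in a list this short is near these shares. The part of these marker shifts in the results below was not tested, and in bulk RNA fewer cells of a type and less RNA per cell cannot be told apart.

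Of the 10 genes, 3 were higher in Cop1KO (Nfkbia, Nfkbiz and Nfkb2) and 1 was lower (Nfkb1) at an adjusted p under 0.05, by limma on log2(RPM + 1) with adjustment over all 11003 genes tested. Over all genes 8.49% were called higher, 12.1% lower and 20.6% in either direction. The median log2 fold change of the 10 genes was 0.63, beside -0.07 for all genes. With the replicate number as a block, 4 genes were called higher (Relb in addition, background 12.3%) and 1 lower (15.7%), where 28% of all genes were called. With both libraries numbered 4 left out, 5 were called higher (Relb and Bcl3 in addition, background 11%) and 1 lower (background 14.1%). Under TMM scaling, which sets the median of all genes at 0.00, the same 3 genes were higher (background 9.92%) and Nfkb1 was no longer called (background 8.83%); the share of all calls that were higher was 52.9% there and 41.3% with scaling by the library total.

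**Figure D1:**
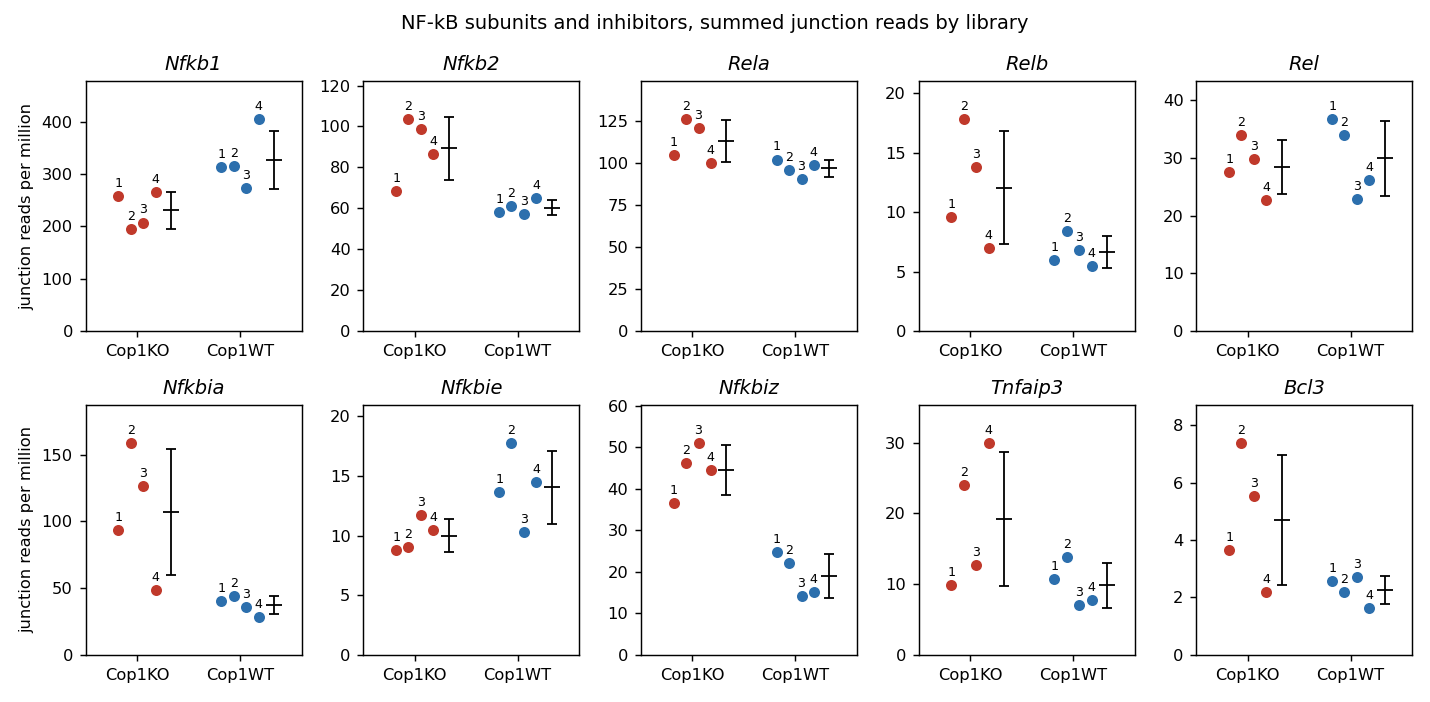
Summed junction RPM (y axis, from 0) of the 10 genes in each library, with Cop1KO in red left of Cop1WT in blue; digits are library numbers and the bar beside each group is the mean with its SD (n = 4). Nfkbiz, Nfkbia and Nfkb2 have all 4 Cop1KO points above all Cop1WT points, and Nfkb1 has them all below.

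Among the subunits, Rela encodes p65, the main activating subunit of the canonical pathway. Rela (ENSMUSG00000024927, chromosome 19, 5637483 to 5648130, plus strand, mm10) had 105, 126, 121 and 99.9 RPM in Cop1KO libraries 1 to 4, against 102, 96.1, 90.4 and 98.9 RPM in Cop1WT libraries 1 to 4. Cop1KO libraries 2 and 3 were the highest, and the groups overlapped because Cop1KO library 4 lay below Cop1WT library 1. The log2 fold change of 0.21 (SE 0.10, adjusted p = 0.151, limma) did not pass the threshold. Its 10 junctions all had a higher mean in Cop1KO, with no overlap at 1 of them.

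Rel encodes c-Rel, a subunit best known from lymphocytes. Rel (ENSMUSG00000020275, chromosome 11, 23736847 to 23770970, minus strand) had 27.6, 33.9, 29.8 and 22.7 RPM in Cop1KO libraries 1 to 4, against 36.7, 34.0, 22.9 and 26.2 RPM in Cop1WT libraries 1 to 4. The groups lay across the same range, with Cop1WT library 1 highest and Cop1KO library 4 lowest. The log2 fold change was -0.06 (SE 0.18, adjusted p = 0.854, limma), and it was 0.01 under TMM scaling.

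Nfkb1 encodes a precursor whose front part is the DNA-binding subunit p50 and whose rear part carries the ankyrin repeats of an IkB protein. Nfkb1 (ENSMUSG00000028163, chromosome 3, 135584655 to 135691547, minus strand) had 257, 194, 208 and 266 RPM in Cop1KO libraries 1 to 4, against 314, 315, 273 and 405 RPM in Cop1WT libraries 1 to 4. All 4 Cop1KO libraries lay below all 4 Cop1WT libraries, which held for 15.4% of all genes. The means were 231 ± 35.5 RPM in Cop1KO and 327 ± 55.7 RPM in Cop1WT (SD, n = 4). By limma the log2 fold change was -0.49, with an SE of 0.15 and an adjusted p of 0.0473.

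That call was close to the threshold, and the junction values of Nfkb1 are uneven. It was lost when any 1 library other than Cop1KO library 4 or Cop1WT library 3 was left out (adjusted p 0.0651 to 0.121). Of its 24 junctions, 9 held at least 1 affected value, meaning at most 6 reads where the rest of the gene predicted at least 100; these were 13 values in Cop1KO and 18 in Cop1WT of 192. A stricter limit, which adds values of at most 3 reads where at least 25 were predicted, was set after the values were seen; it gives the same 9 junctions for Nfkb1, and counts over single junctions of each gene leave out those it affects. Without those 9 junctions the sums were 174, 146, 150 and 187 RPM in Cop1KO libraries 1 to 4 and 271, 275, 215 and 303 RPM in Cop1WT libraries 1 to 4, with the groups further apart. Nfkb1 then differed by -0.69 (SE 0.12, adjusted p = 0.00583, limma), in a fit that called 27.1% of all genes in either direction.

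Along Nfkb1 the mean was lower in Cop1KO at all 15 junctions not flagged as affected. Of these, 3 were read little in every library and could not have been flagged. The difference was larger in the downstream part of the gene. Over 6 unaffected junctions within exon blocks 1 to 14, the mean was 9.53, 8.42, 8.73 and 9.84 RPM per junction in Cop1KO libraries 1 to 4, against 10.5, 10.7, 9.06 and 13.7 RPM in Cop1WT libraries 1 to 4. There the groups overlapped, although the mean was lower in Cop1KO in each of the 4 same-numbered pairs, and at 0 of the 6 junctions did all Cop1KO libraries lie below all Cop1WT libraries. Over 6 unaffected junctions within blocks 17 to 26, the mean was 19.4, 15.8, 16.2 and 21.3 RPM per junction in Cop1KO, against 34.3, 34.6, 26.5 and 36.4 RPM in Cop1WT. Here all Cop1KO libraries were below all Cop1WT libraries, at each of the 6 junctions. The junctions nearest the 3' end show it most plainly: the one joining blocks 25 and 26 had 20.1, 16.4, 13.99 and 18.5 RPM in Cop1KO and 34.2, 36.4, 28.7 and 34.2 RPM in Cop1WT. For this and the other genes, counts of junctions without overlap have no share over all junctions beside them. Junctions of a gene come from the same libraries, and a fragment can count at several, so they are not separate support.

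In both groups the downstream junctions thus held more reads than the upstream ones, by a smaller factor in Cop1KO. The ratio of downstream to upstream mean was 1.98 ± 0.146 in Cop1KO and 3.01 ± 0.285 in Cop1WT (SD, n = 4), and the surplus was 9.04 ± 1.99 RPM per junction in Cop1KO and 21.9 ± 3.03 RPM in Cop1WT. These blocks were chosen after the values were seen, so the ratio is a description. A test over 7410 genes, in which the unaffected junctions of each gene were split at the middle, gave Nfkb1 a log2 difference of the downstream to upstream ratio of -0.60 (SE 0.07, adjusted p = 0.00404, limma). With the replicate number as a block the adjusted p was 0.0208. This test was also added after the values were seen; it called 6 genes, 0.081% of those tested, and 0.162% with the block. For Nfkb1 its split fell on the same 6 upstream and 6 downstream junctions as the ratio above. It therefore sets the same contrast against that of other genes and is not separate support for it. In each of the other members with enough junctions (Nfkb2, Rela, Relb, Rel, Nfkbia, Nfkbie, Nfkbiz and Tnfaip3) the adjusted p was at least 0.877.

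Another 3 junctions of Nfkb1, joining blocks 14 to 15, 15 to 16 and 20 to 21, had 0.0488 to 1.38 RPM in every library and were in neither mean. At all 3 every Cop1KO library was below every Cop1WT library, so that 9 of the 15 junctions not flagged as affected showed no overlap. A value was flagged only against a higher library of the same junction, so a junction low in every library could not be flagged. Whether these 3 are affected in all libraries was not tested. The test of single junctions against the rest of their gene (limma diffSplice) covered 29 junctions of 4 of the 10 genes and called 0 of them, beside 0.0283% of all junctions called; 6 had an unadjusted p under 0.05. For Nfkb1 as a whole its F test gave an adjusted p of 0.128.

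**Figure D2:**
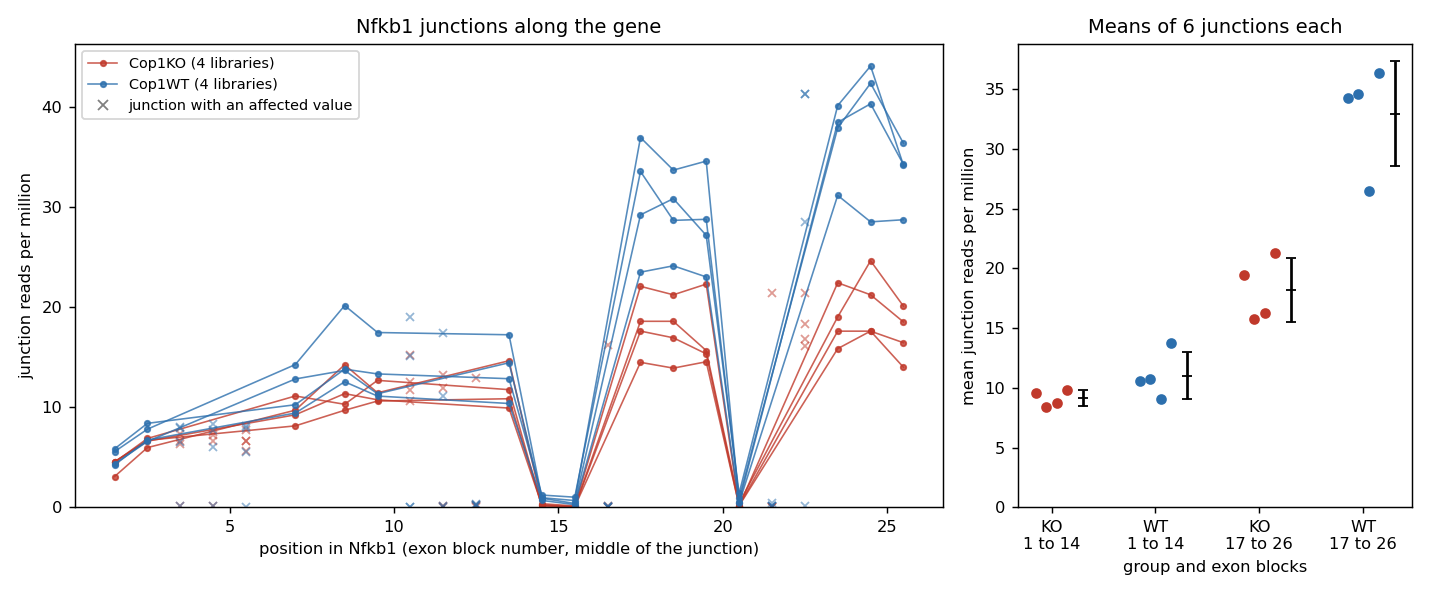
Left, junction RPM (y axis) along Nfkb1 (x axis, exon block number at the middle of each junction), 1 line per library, Cop1KO in red and Cop1WT in blue, with crosses for the 9 junctions that hold an affected value. Right, the mean of the 6 junctions of blocks 1 to 14 and of the 6 of blocks 17 to 26 per library, with group mean and SD (n = 4); the groups overlap upstream (8.42 to 9.84 RPM in Cop1KO, 9.06 to 13.7 RPM in Cop1WT) and separate downstream (15.8 to 21.3 RPM in Cop1KO, 26.5 to 36.4 RPM in Cop1WT).

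As background, a shorter Nfkb1 RNA for the IkB-like rear part alone has been described in mouse lymphoid cells. The Gencode M21 annotation (mm10) holds several Nfkb1 transcripts that start inside the 25-exon transcript Nfkb1-201. Among them, 2 start at its exon 16, 1 at exon 19 and 1 each at exons 2, 3 and 8. Another 2 start within or just before exon 13, at chromosome 3, 135608152 to 135608295: Nfkb1-202, a retained-intron transcript of 13 exons, and Nfkb1-203, annotated as protein coding, with 12 exons. As 1 example of an internal start, the sequences show where Nfkb1-201 and Nfkb1-202 part, with 15 bases of exon 13 in capitals (chr3:135608281-135608295, minus strand) and the 15 bases before them in lower case, which are exon 12 in Nfkb1-201 and continuous genomic sequence in Nfkb1-202.
Nfkb1-201: accctgaaatcaaagACAAAGAGGAAGTGC
Nfkb1-202: ttcctgtaaatacagACAAAGAGGAAGTGC
The table has 25 numbered blocks for Nfkb1, as many as Nfkb1-201 has exons, but the blocks carry no coordinates, so their match is in number only and which transcript the downstream reads belong to was not tested.

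Nfkb2 encodes the precursor p100, which restrains RelB and is cut to the subunit p52 in the noncanonical pathway. Nfkb2 (ENSMUSG00000025225, chromosome 19, 46304320 to 46312385, plus strand) had 68.6, 104, 98.5 and 86.4 RPM in Cop1KO libraries 1 to 4, against 58.0, 60.9, 57.5 and 65.2 RPM in Cop1WT libraries 1 to 4. All Cop1KO libraries were above all Cop1WT libraries, which held for 9.79% of all genes, and library 1 was the closest to Cop1WT. The means were 89.3 ± 15.6 RPM in Cop1KO and 60.4 ± 3.54 RPM in Cop1WT (SD, n = 4). That is 0.54 on the log2 scale, with an SE of 0.13 and an adjusted p of 0.0248 by limma. The call ended without Cop1KO library 2 (adjusted p = 0.0652) or 3 (0.0719) and without Cop1WT library 1 (0.0625), 2 (0.0610) or 3 (0.0559). The mean was higher in Cop1KO at 18 of the 20 junctions (of 22) left by the stricter limit, with no overlap at 4 of them.

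Relb encodes the subunit that pairs with p52. Relb (ENSMUSG00000002983, chromosome 7, 19606217 to 19629438, minus strand) was read little, with 9.61, 17.8, 13.8 and 7.03 RPM in Cop1KO libraries 1 to 4, against 5.96, 8.44, 6.83 and 5.45 RPM in Cop1WT libraries 1 to 4. Cop1KO libraries 1 to 3 were above every Cop1WT library and library 4 was within their range. Its log2 fold change was 0.71 (SE 0.27, adjusted p = 0.0997, limma). It passed with the replicate number as a block (adjusted p = 0.0259), with Cop1KO library 4 left out (0.92, adjusted p = 0.0244) and with the 2 libraries numbered 4 left out (0.84, adjusted p = 0.0477).

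Among the inhibitors, Nfkbia encodes IkBalpha, the cytoplasmic inhibitor that NF-kB itself induces as a rapid brake. Nfkbia (ENSMUSG00000021025, chromosome 12, 55489410 to 55492647, minus strand) had 93.9, 159, 126 and 48.5 RPM in Cop1KO libraries 1 to 4, against 40.5, 44.4, 35.98 and 28.4 RPM in Cop1WT libraries 1 to 4. All Cop1KO libraries were above all Cop1WT libraries, library 4 only just. The means were 107 ± 47.1 RPM in Cop1KO and 37.3 ± 6.90 RPM in Cop1WT (SD, n = 4). By limma the difference on the log2 scale was 1.39, with an SE of 0.34 and an adjusted p of 0.0240, and it was the largest of the 10.

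The rise was seen along the whole gene: the mean was higher in Cop1KO at all 5 junctions, without overlap at 4 of them. With 1 library left out the log2 fold change was 1.16 to 1.72 and the adjusted p was 0.0557 without Cop1KO library 1, 0.0556 without 2 and 0.0700 without 3, and 0.0509, 0.0529 and 0.0602 without Cop1WT library 1, 3 and 4. Without Cop1KO library 4 it was 0.00192. The order of the Cop1KO libraries, with 2 highest and 4 lowest, was that of Rela, Relb, Rel and Bcl3 and also of the late neutrophil sum at its ends; how far the marker shift enters this result was not tested.

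Nfkbie encodes IkBepsilon, another cytoplasmic inhibitor, and it lay the other way. Nfkbie (ENSMUSG00000023947, chromosome 17, 45555703 to 45563169, plus strand) had 8.78, 9.06, 11.7 and 10.5 RPM in Cop1KO libraries 1 to 4, against 13.6, 17.8, 10.3 and 14.5 RPM in Cop1WT libraries 1 to 4. The groups overlapped through Cop1WT library 3, which was below Cop1KO libraries 3 and 4. The log2 fold change of -0.44 (SE 0.18, adjusted p = 0.120, limma) did not pass, and its 5 junctions all had a lower mean in Cop1KO.

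The IkB-like proteins of the nucleus work with NF-kB at its target genes instead of holding it in the cytoplasm. Nfkbiz encodes IkBzeta, which is needed for a set of late inflammatory genes. Nfkbiz (ENSMUSG00000035356, chromosome 16, 55811375 to 55838899, minus strand) had 36.5, 46.1, 51.1 and 44.6 RPM in Cop1KO libraries 1 to 4, against 24.8, 22.2, 14.2 and 15.05 RPM in Cop1WT libraries 1 to 4. All Cop1KO libraries were above all Cop1WT libraries, and library 4 lay among the other Cop1KO libraries. The means were 44.6 ± 6.03 RPM in Cop1KO and 19.1 ± 5.26 RPM in Cop1WT (SD, n = 4). Its log2 fold change by limma was 1.21, with an SE of 0.20 and an adjusted p of 0.00628.

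Nfkbiz had the smallest adjusted p of the 10, and it stayed under 0.05 in all 19 alternative fits (0.00543 to 0.0335). The mean was higher in Cop1KO at all 8 junctions (of 12) left by the stricter limit, with no overlap at 6 of them. In Cop1KO libraries 1 to 4 Nfkbiz had 36.5, 46.1, 51.1 and 44.6 RPM. The late neutrophil markers there summed to 4963, 10390, 4433 and 365 RPM. How far the marker shift enters the result for Nfkbiz was not tested.

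Bcl3 encodes a nuclear partner of the p50 and p52 subunits. Bcl3 (ENSMUSG00000053175, chromosome 7, 19808462 to 19822770, minus strand) had the fewest reads of the 10, 29 to 128 per library, and overlaps 2 annotated antisense genes. It had 3.66, 7.38, 5.52 and 2.18 RPM in Cop1KO libraries 1 to 4, against 2.57, 2.18, 2.70 and 1.63 RPM in Cop1WT libraries 1 to 4. Cop1KO libraries 1 to 3 were above every Cop1WT library, while library 4 lay within their range. On the log2 scale the difference was 0.72 (SE 0.30, adjusted p = 0.127, limma), which understates changes at levels near 1 RPM, and it was 0.97 with Cop1KO library 4 left out (adjusted p = 0.0236) and 0.87 with the 2 libraries numbered 4 left out (adjusted p = 0.0441).

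Tnfaip3 encodes A20, a ubiquitin-editing enzyme that ends NF-kB signalling and is itself an NF-kB target. Tnfaip3 (ENSMUSG00000019850, chromosome 10, 19000910 to 19015657, minus strand) had 9.90, 24.1, 12.8 and 29.95 RPM in Cop1KO libraries 1 to 4, against 10.7, 13.9, 7.04 and 7.69 RPM in Cop1WT libraries 1 to 4. The groups overlapped, and Cop1KO library 4 was here the highest. The log2 fold change was 0.82 (SE 0.36, adjusted p = 0.145, limma).

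This sum includes junction values far below their neighbours. At the stricter limit 4 of its 8 junctions held an affected value, 7 values in Cop1KO and 2 in Cop1WT. Over the other 4 junctions the sums were 5.95, 18.1, 12.4 and 12.9 RPM in Cop1KO libraries 1 to 4, against 6.05, 5.73, 2.75 and 3.65 RPM in Cop1WT libraries 1 to 4, with Cop1KO library 1 within the Cop1WT range. The difference was then 1.22 on the log2 scale (SE 0.33, adjusted p = 0.0243, limma; background 11.3% higher). The junction joining blocks 2 and 4, where the groups did not overlap, had 2.58, 4.10, 3.67 and 3.92 RPM in Cop1KO and 1.24, 1.75, 1.22 and 0.674 RPM in Cop1WT.

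**Figure D3:**
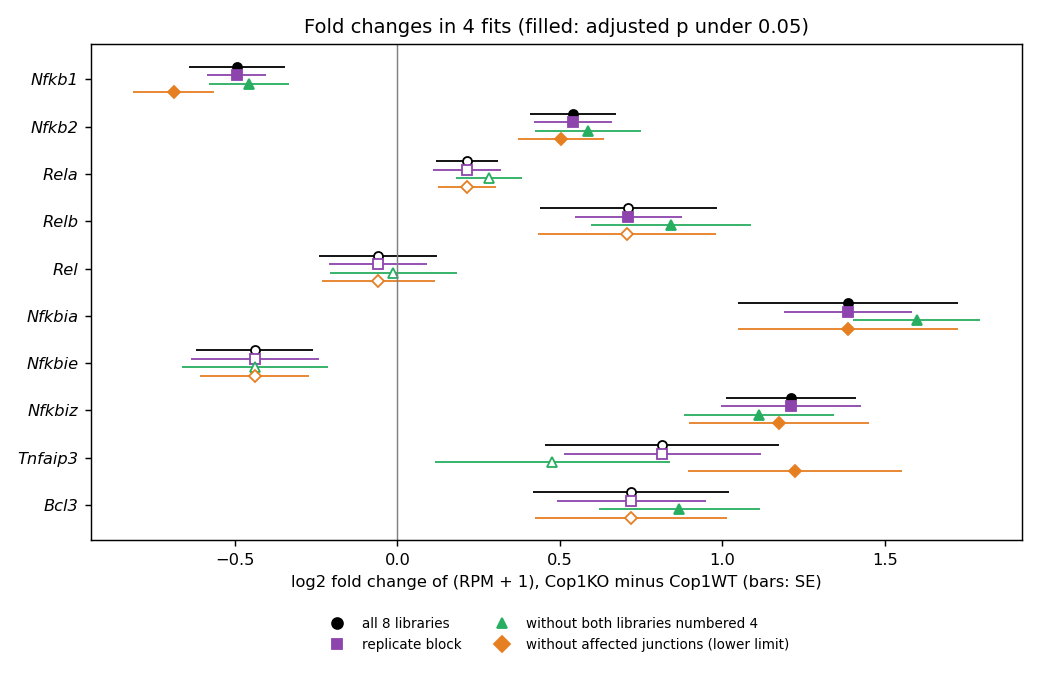
Log2 fold change of RPM + 1 (x axis, Cop1KO minus Cop1WT) with its SE for each of the 10 genes (rows) in 4 fits; filled symbols have an adjusted p under 0.05. Nfkbia, Nfkbiz, Nfkb2 and Nfkb1 are filled in all 4 fits, Relb with the block and without the libraries numbered 4, Bcl3 without the libraries numbered 4, and Tnfaip3 only without junctions affected at the stricter limit (lower limit in the legend).

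Set against each other by the median RPM per junction left by the stricter limit, which takes the number of junctions out of the level, the genes fell into bands. In Cop1KO, Nfkbia (21.9), Nfkb1 (11.8) and Rela (11.7) led, followed after a gap by Nfkbiz (4.32), Nfkb2 (4.19), Rel (3.25), Tnfaip3 (2.91) and Nfkbie (2.01), with Bcl3 (0.575) and Relb (0.251) last. In Cop1WT, Nfkb1 (13.9) was first, above Rela (9.66) and Nfkbia (7.82), then came Rel (3.12), Nfkb2 (3.02), Nfkbie (2.83), Nfkbiz (1.94) and Tnfaip3 (1.11), with Relb (0.299) and Bcl3 (0.237) last. Neighbours within a band overlapped in their ranges over libraries, and neighbours across a gap did not. Relb was an exception to reading its sum from this median, since the 16 of its 17 junctions left by the stricter limit had a lower median level in Cop1KO while 12 of them had a higher mean there.

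The balance between members was compared as ratios within each library, which do not depend on the library total. Nfkbia to Rela was 0.486 to 1.26 in Cop1KO and 0.287 to 0.462 in Cop1WT, a log2 difference of 1.19. Nfkb2 to Nfkb1 was 0.267 to 0.532 in Cop1KO and 0.161 to 0.211 in Cop1WT, a log2 difference of 1.04. For both ratios the groups did not overlap (exact permutation p = 0.0286 each, two-sided, n = 4 against 4, the smallest this design allows), but over the 4 ratios compared the adjusted p of 0.0571 did not pass. For Nfkb2 to Nfkb1 this outcome was fixed by the values above. Both genes separated the groups without overlap, in opposite directions, so the ratio adds no further test. Relb to Rela differed by 0.57 (exact permutation p = 0.114, adjusted 0.143) and Rel to Rela by -0.28 (exact permutation p = 0.143, adjusted 0.143), with overlapping groups.

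**Figure D4:**
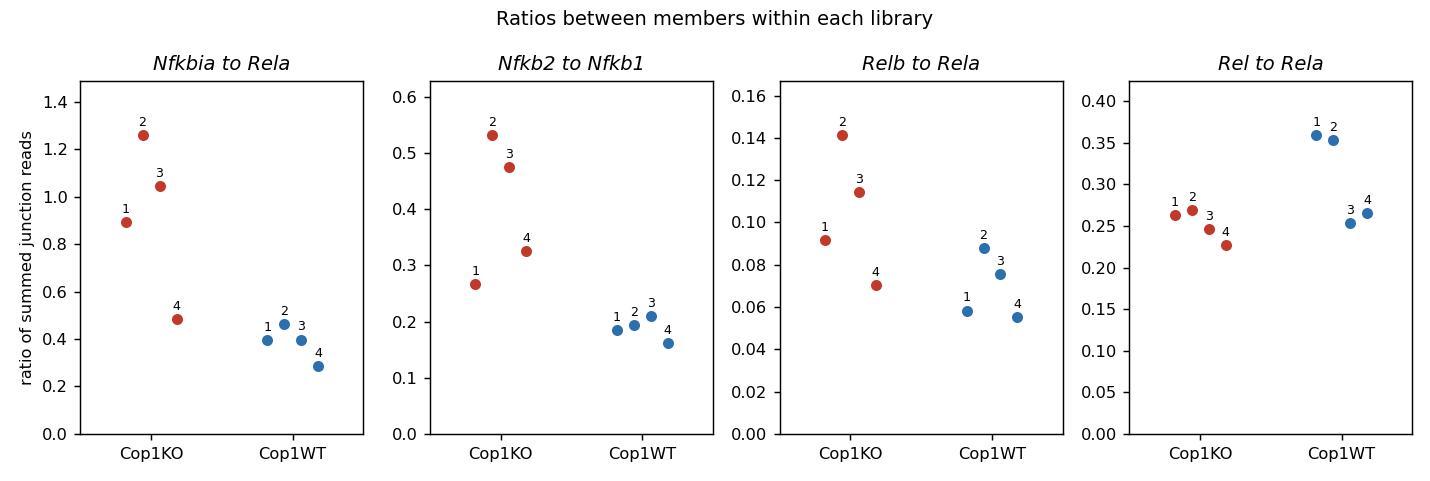
Ratios of summed junction reads between pairs of the 10 genes (y axis, from 0) in each library, Cop1KO in red left of Cop1WT in blue, with library numbers. Nfkbia to Rela and Nfkb2 to Nfkb1 are higher in every Cop1KO library than in any Cop1WT library, with Cop1KO library 4 lowest for the first (0.486) and library 1 lowest for the other (0.267).

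The other genes of the pathway were taken from 8 lists by role, 117 genes with rows of which 108 were tested. Of these, 20 were higher in Cop1KO and 2 lower, with a median log2 fold change of 0.24; the backgrounds are the 8.49% and 12.1% given above. Of the 20 higher calls 19 lay in the lists of innate receptors and adaptors and of target genes.

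In the canonical activation list 0 of 16 genes were higher and 2 were lower, the latter near the background of 12.1%. Chuk, the catalytic kinase IKKalpha, had 62.7 to 67.4 RPM in Cop1KO and 83.4 to 104 RPM in Cop1WT (log2 fold change -0.46, SE 0.09, adjusted p = 0.0134, limma), with no overlap. Rbck1, part of the linear ubiquitin ligase, had -0.37 (adjusted p = 0.0327). On the noncanonical list, which does not hold Chuk, 0 of 6 tested genes passed, and this count says nothing of genes kept on other lists. Birc3, a ubiquitin ligase, had 41.9 to 99.1 RPM in Cop1KO and 38.3 to 58.4 RPM in Cop1WT (0.48, limma adjusted p = 0.213, and 0.0333 with the replicate block). Ltbr, the lymphotoxin receptor, had 0.18 (limma adjusted p = 0.451). Of 4 kinases related to the IKK complex 1 was higher: Ikbke had 50.1 to 71.7 RPM in Cop1KO and 21.6 to 41.0 RPM in Cop1WT (0.97, adjusted p = 0.0129). Among 18 other IkB genes and brakes 0 were called, with Tax1bp1 at 0.18 and Itch at 0.05.

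Of 24 receptors and adaptors of innate signalling 5 were higher and 0 lower (8 higher with the replicate number as a block, and 8 when the 2 libraries numbered 4 were left out). Cd14, the co-receptor for lipopolysaccharide, had 8.92, 22.2, 15.4 and 4.18 RPM in Cop1KO libraries 1 to 4, against 0.334, 0.0531, 1.48 and 0 RPM in Cop1WT libraries 1 to 4 (3.11, SE 0.49, adjusted p = 0.00551, limma). All Cop1KO libraries were above all Cop1WT libraries, with library 4 the lowest of them. The Toll-like receptors Tlr2 (2.25, adjusted p = 0.0179) and Tlr4 (1.33, adjusted p = 0.00831) and the adaptor kinase Ripk2 (0.57, adjusted p = 0.0189) were higher too. Cd14 is also on the list of monocyte markers.

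Of 15 cytokine and chemokine targets 6 were higher, with a list median of 1.33. Cxcl2, a chemokine for neutrophils, had 106, 251, 212 and 74.3 RPM in Cop1KO libraries 1 to 4, against 10.5, 4.88, 5.61 and 1.12 RPM in Cop1WT libraries 1 to 4 (4.70, SE 0.56, adjusted p = 0.00231, limma). Every Cop1KO library was above every Cop1WT library. Cxcl3 (3.47, adjusted p = 0.00959), Ccl3 (1.82, adjusted p = 0.0137) and Ccl9 (1.34, adjusted p = 0.0148) were also higher. Of 10 survival and surface targets 4 were higher: Cd69, an early activation antigen (1.34), the glucose transporter gene Slc2a6 (1.19), the death receptor Fas (1.47) and the adaptor Traf1 (1.15), with adjusted p of 0.00388 to 0.0337.

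Of 15 target enzymes and factors 4 were higher. Ptgs2, the inducible prostaglandin synthase, had 54.3, 131, 124 and 89.2 RPM in Cop1KO libraries 1 to 4, against 14.8, 16.3, 15.3 and 4.32 RPM in Cop1WT libraries 1 to 4 (2.94, SE 0.43, adjusted p = 0.00426, limma). The others were Lcn2 (5.75, adjusted p = 0.00447), Plau (2.18, adjusted p = 0.00603) and Saa3 (2.46, adjusted p = 0.0440). Lcn2 is on the list of late neutrophil markers as well, and the summed RNA of this target list was 369 RPM in Cop1KO library 4, close to the 264 to 349 RPM of Cop1WT, against up to 1456 RPM in the other Cop1KO libraries.

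**Figure D5:**
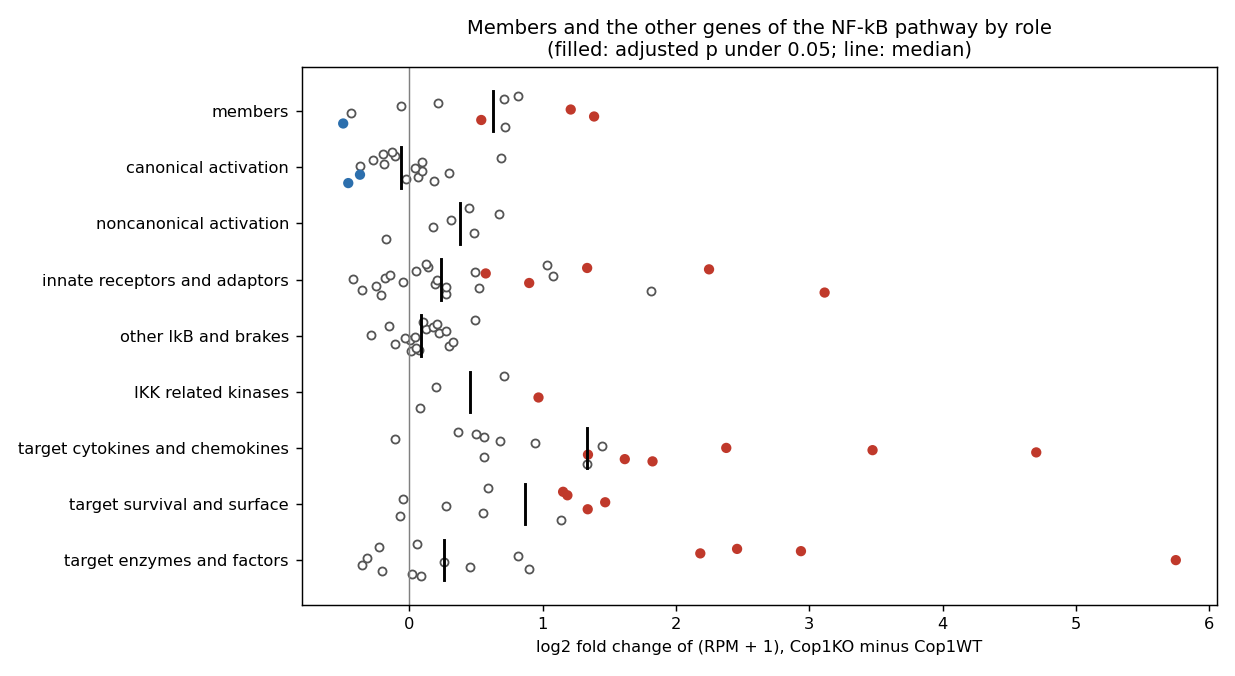
Log2 fold change of RPM + 1 (x axis, Cop1KO minus Cop1WT) for the 10 genes and for the tested genes of the 8 other lists (rows), 1 point per gene, filled red when called higher, filled blue when called lower and open otherwise; black lines are list medians. The median is 0.63 for the 10 genes, -0.06 for canonical activation and 1.33 for cytokine and chemokine targets.

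By root mean square distance between centred log2 profiles over the 8 libraries, among 7689 genes of at least 10 RPM, the genes most like Nfkbia were Mcu (0.164), Tmem38b (0.168) and Sp100 (0.200). Those most like Nfkbiz were Plk3 (0.152), Csf2rb (0.182) and Tecpr1 (0.189). Csf2rb encodes a receptor chain for interleukin-3 and has a near-identical neighbour, Csf2rb2, with which reads may be shared.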

How the data were processed

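RNA of 4 Cop1KO and 4 Cop1WT libraries was measured by strand-specific sequencing. The submitters' processing notes name Trimmomatic 0.39, kallisto and build mm10, and the step that gave junction values is not given in the sources used here. What the authors deposited is 1 normalised signal for each splice junction, with AltAnalyze identifiers per the file headers. Tested on the values, a signal equals reads plus 1, divided by the library's total and by 60 nt, and all libraries show 0 reads by the same floor. Turning this round gave whole reads, within 0.001 of a read, for 100% of values above the floor. Reads were summed per gene and scaled to reads per 1000000 junction reads (RPM); a fragment can count at several junctions. Of 13378 identifiers 13247 had a symbol; gene coordinates are from Gencode M21.

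limma 3.58.1 (R 4.3.3; trend and robust moderation) was fitted to log2(RPM + 1). Genes had to average 1 RPM or more. P-values were adjusted over 11003 genes by Benjamini-Hochberg and read against 0.05. Folds of genes near 1 RPM are understated. Ratios were compared by exact permutation tests in Python 3.11.15 with scipy 1.17.1. Affected junction values made up 6.57% of those of junctions that reached 100 scaled reads; the main sums keep them. The fits were run on simulated reads with known changes. Those reads were drawn separately for each library, without affected values, pairing or an unlike library. They therefore check the code and do not show how the fits perform on these libraries. The planned count models were not run: the deposited unit is a normalised signal in which 0 reads share 1 floor in all libraries, so the test for normalised values was used. TMM factors were computed directly.

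Same-numbered libraries resembled each other: deviations from group means correlated at 0.32, 0.29, 0.36 and 0.55 between them, and at -0.31 to 0.15 otherwise. Because each group was centred on its mean, positive values for some pairs go with negative values for others. The labels do not say what the numbers stand for, so a pairing is inferred only. The main fit leaves it out, and the fit with the replicate block includes it. Replicates differed beyond counting noise (lowest chi-square per degree of freedom 30.8). The 10 genes, the lists and the tests were chosen with earlier results of these data known. Beside the 10 genes and Cop1, the text names up to 4 called genes per pathway list by adjusted p, or the 2 most read where none passed, and the 3 closest profiles of the members with the largest fold changes. Markers and a few values beside results were named after they were seen.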

Additional observations from a re-analysis of the deposited data

How the results depend on the processing

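Nfkbiz and the downstream shift of Nfkb1 kept their direction and call in every alternative run (19 and 12), and Rela and Nfkbie passed in none of 19. With the replicate block, which follows the pairing of the numbers, 4 of the 10 genes were higher and 1 lower (backgrounds 12.3% and 15.7%); it brought in Relb (0.71, adjusted p = 0.0259) and, among the pathway genes named, Birc3, and changed no other call of the 10 genes or of a named pathway gene. Block and removal of affected junctions together gave 1699 genes higher and 2401 lower, 5 of the 10 genes higher, Relb at 0.71 and Bcl3 at 0.72 (adjusted p = 0.0433). Without both libraries numbered 4, 5 were higher, with Relb at 0.84 and Bcl3 at 0.87. With no filter on low values and with TMM scaling 0 of the 10 were lower: Nfkb1 had -0.49 (adjusted p = 0.0542) and -0.42 (0.0622), and Rel turned to 0.0141 under TMM. With the most-read junction alone Nfkb2 had 0.54 (adjusted p = 0.0628) and Tnfaip3 1.05 (0.00930), and Tnfaip3 had 1.22 at the stricter limit for affected junctions, which was chosen after seeing the data. Leaving out each library gave 509 (Cop1KO library 3) to 1249 (Cop1KO library 4) genes higher, 706 to 1742 lower (the same libraries), 1 to 5 of the 10 genes higher and 0 to 1 lower. The ranges were -0.58 to -0.39 for Nfkb1, 0.46 to 0.66 for Nfkb2, 0.51 to 0.92 for Relb, -0.1756 to 0.0434 for Rel (above 0 without Cop1KO library 4 or Cop1WT library 1 or 2), 1.16 to 1.72 for Nfkbia, 0.57 to 1.07 for Tnfaip3, 0.50 to 0.97 for Bcl3 and -0.65 to -0.56 for the Nfkb1 downstream ratio. The ratios between members passed in no alternative; with a library left out the smallest exact p is 0.0571, and with the pairs as a block 0.125. Causes were not tested. The count models planned were not run, and a minimum of 10 RPM left no value for Relb and Bcl3. Relb, Bcl3, Nfkbie and Tnfaip3 had under 30 RPM in every library.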
